A study of Mus musculus with 454 samples.

Results

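Of the 85 genes whose symbols start with Kcn but not with Kcnk, 58 were kept and are described here. These are the potassium channel genes of the mouse other than the K2P family (Kcnk), with their auxiliary subunits and a few non-coding RNAs named after them. A gene was kept when it had at least 10 reads in 5% of the neurons that were picked and sequenced one by one, or at least 1 UMI (a molecule counted once by its tag) in 5% of the barcodes of a droplet library. The picked cells kept 50 genes and the droplet library kept 56, with 48 kept by both, and 27 genes were kept by neither. The reads cover 36920 symbols, and 28001 genes are listed for the droplet library.

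Voltage-gated potassium channels open when the membrane depolarises and let potassium leave the cell, which ends the action potential and sets how fast the next one can follow. Pore subunits assemble within a family (Kv1 to Kv4, KCNQ, EAG, ERG and ELK, and the calcium- and sodium-activated channels), and beta subunits, KChIP proteins and silent subunits change how much current these pores carry and when. In vagal sensory neurons, which carry signals from the stomach, gut and other viscera to the brainstem, these currents set whether a neuron fires once or repeatedly to a sustained input.

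All samples were single cells of the nodose ganglion of wild type C57BL/6 mice, dissociated with papain, collagenase and dispase. One sample was a 10x Genomics library of mice of 6 weeks, and the others were cells of mice of 8 to 12 weeks made into Smart-seq2 cDNA and Nextera libraries. The authors' header lines give each picked cell a mouse and a target code, GastG, GastP, IntP, IntM, IntD, IntL, Port or na, and these codes are not expanded in the sources used here. The mouse was the replicate, with 5 GastG, 3 GastP, 4 IntP, 3 IntM, 3 IntD, 3 IntL and 8 Port mice of at least 4 cells each. The groups share strain, genotype and tissue and have no untreated control among them. Of 449 picked cells that passed, 396 had a code, and 53 coded na entered no comparison.

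Passing picked cells held a median of 1617520 reads (3934 to 4692460). The 1108 droplet barcodes held a median of 55398 UMIs (13505 to 169263), and 1087 of them clustered as neurons and 21 as satellite glia. The neuron markers Snap25, Tubb3, Uchl1, Slc17a6 and Elavl4 averaged 10.14 to 10.55 in every fitted mouse. That value, like all picked-cell values below, is log2(CPM + 1) averaged over the cells of a mouse, where CPM is the gene's share of a cell's reads scaled to a common total. The satellite glia list averaged 2.10 to 5.77 per mouse and the nerve injury list (Sprr1a, Atf3, Gal, Gap43 and Ecel1) 2.81 to 9.14, and both are given again beside the results they move with. Read counts grow with transcript length, so levels are compared between genes only in the droplet library, whose UMIs count transcript ends.

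The stretches before the start sites of the genes with the largest differences between Gast and Int neurons are shown first, because those genes carry the main comparison. Shown are the 250 bases before the RefSeq start, on GRCm38.p6, for the 2 members with the largest positive and the 2 with the largest negative difference among those with a single start in the table. They lie at chr3:31902453-31902702 on the plus strand for Kcnmb2, chr19:45816064-45816313 on the minus strand for Kcnip2, chr5:24329592-24329841 on the minus strand for Kcnh2 and chr1:140245468-140245717 on the plus strand for Kcnt2. Capitals mark each GC box, spelled GGGCGG, on the strand of the gene.
Kcnmb2: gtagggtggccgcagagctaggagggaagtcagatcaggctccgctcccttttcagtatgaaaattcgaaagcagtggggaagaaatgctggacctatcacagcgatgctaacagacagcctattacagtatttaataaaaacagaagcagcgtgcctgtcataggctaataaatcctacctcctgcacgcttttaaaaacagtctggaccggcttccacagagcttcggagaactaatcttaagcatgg
Kcnip2: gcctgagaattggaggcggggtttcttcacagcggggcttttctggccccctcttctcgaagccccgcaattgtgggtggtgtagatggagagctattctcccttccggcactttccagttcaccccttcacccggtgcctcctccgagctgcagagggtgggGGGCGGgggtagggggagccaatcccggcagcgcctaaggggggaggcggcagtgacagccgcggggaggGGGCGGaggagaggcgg
Kcnh2: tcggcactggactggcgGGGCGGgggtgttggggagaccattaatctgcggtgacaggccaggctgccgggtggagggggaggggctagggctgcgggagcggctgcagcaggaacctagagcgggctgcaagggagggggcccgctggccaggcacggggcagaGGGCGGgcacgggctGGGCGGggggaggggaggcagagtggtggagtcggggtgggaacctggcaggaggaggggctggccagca
Kcnt2: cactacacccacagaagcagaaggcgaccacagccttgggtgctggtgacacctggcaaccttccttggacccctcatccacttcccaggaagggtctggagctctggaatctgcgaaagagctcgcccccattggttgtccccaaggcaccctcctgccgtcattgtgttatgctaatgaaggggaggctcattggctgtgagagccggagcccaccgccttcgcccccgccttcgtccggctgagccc

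The Kcnip2 stretch held 2 GC boxes and the Kcnh2 stretch 3, and those of Kcnmb2 and Kcnt2 held none on either strand. The start listed for Kcnh2 lies inside the gene as the GENCODE annotation draws it (chr5:24319589-24351604), so the stretch shown is not upstream of the whole gene. The Kcnmb2 stretch also runs into its gene, which that annotation starts at chr3:31902507. A GC box on either strand was present in 32.7% of the 32851 promoters of the table, and a TATA box, spelled TATAAA, in 12.4%. Of the 58 members 42 had an entry. Among the members higher in Gast neurons 8 of the 11 with an entry held a GC box in any of their promoters, and among those lower 2 of 4, and none of either held a TATA box. These counts are of genes with any such promoter, while the shares of the table are of single promoters. No share per gene was made, so the counts cannot be compared with those shares. A match is a description of the letters and not a binding site.

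The comparison of Gast with Int neurons asked which channel genes differ between the neurons of these target codes. Of 50 members tested 21 differed (42%), against 14.8% of all 12702 genes, by limma with an adjusted p under 0.05. Of these, 16 were higher in Gast neurons and 5 lower, where 9.06% and 5.74% of all genes were. The higher members were led by the KChIP gene Kcnip3, the beta subunit Kcnab2, the BK beta subunit Kcnmb2 and the Kv1 pore Kcna1, and the lower ones by the ERG channel Kcnh2, the sodium-activated Kcnt2 and the Kv2 pore Kcnb2. The median difference was 0.23 over the members and 0.07 over all genes on the log2 scale. A mouse's mean combines the share of its cells that use a gene with the level in those cells. Kcnb2 had 10 reads in 95.4% to 100% of cells in every code, as means over mice, so its difference lay in the level per cell. Other lists moved with this comparison. The nodose-like markers averaged 4.62 to 6.08 in Gast and 6.23 to 7.77 in Int mice, with no overlap, and the immediate early genes 6.11 to 7.28 in Gast, 6.49 to 6.86 in IntL and 4.70 to 6.45 in the other Int mice. The jugular-like markers averaged 1.95 to 2.08 in GastG, 2.10 to 2.64 in GastP and 1.60 to 1.96 in Int mice. The part of these lists in the differences was not tested.

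Kcnip3, at chr2:127456498-127522094 (GRCm38), encodes a calcium-binding KChIP protein that joins Kv4 channels and is also known as the transcriptional repressor DREAM. Its level was 4.36, 3.10, 1.18, 3.14 and 3.58 in the 5 GastG mice and 3.85, 4.68 and 3.68 in the 3 GastP mice. Int mice ranged from 0.00 over a median of 0.61 to 2.02, and the 3 IntL mice at 1.97, 1.57 and 2.02 were the highest of them. Of the 8 Gast mice, 7 stood above every Int mouse, and GastG mouse 41, at 1.18, lay among the Int mice. The difference was 2.75 ± 0.28 (standard error, adjusted p = 1.1e-07). At least 10 Kcnip3 reads were found in 45.1% of GastG and 79.1% of GastP cells but in 4.3% of IntD cells, as means over mice. The companion gene Kcnip2, the KChIP best known from heart muscle, had 1.26 to 3.08 in Gast mice (median 2.05) and 0.14 to 2.08 in Int mice (median 0.81). The Int range was exceeded by 3 Gast mice and held the other 5, with a difference of 1.5 ± 0.25 (adjusted p = 8.14e-05). Kcnip4, the third member tested of this family, did not differ.

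Kcnab2, the Kv beta 2 subunit that attaches to Kv1 channels and promotes their transport to the axon, was at 4.80 to 7.41 in Gast mice (median 6.82) and 3.11 to 5.57 in Int mice (median 4.64). Again 7 of 8 Gast mice stood above all 13 Int mice, and mouse 41 was the exception. The difference was 2.35 ± 0.26 (adjusted p = 2.22e-07). Kcnab2 shares bases with Nphp4 on the other strand, and Smart-seq2 does not mark strand, so reads of the 2 genes could be mixed. The Kv1 pore genes Kcna1 and Kcna4 were also higher, Kcna1 by 1.73 ± 0.46 and Kcna4 by 0.89 ± 0.22, while Kcna2, Kcna3 and Kcna6 did not pass the test. Kcna1, which lets low-threshold current hold back repetitive firing, read 2.67 to 4.65 in Gast and 0.41 to 4.01 in Int mice. Only 1 Gast mouse exceeded the Int range, whose highest value came from IntP mouse 16. Kcna1 was also the member most abundant in myelinating Schwann cells of the droplet library (below). The Schwann list, with genes such as Mbp, Prx and Ncmap, averaged 2.81 to 4.43 in Gast mice, 2.58 to 4.58 in Int mice and 3.0 to 4.15 in Port mice, and its part in the Kcna1 difference was not tested.

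Kcnmb2 encodes a BK channel beta subunit that makes the calcium-activated current inactivate. It had 3.88, 0.98, 1.66, 1.21 and 2.43 in the GastG mice and 3.39, 4.28 and 1.79 in the GastP mice. IntP, IntM and IntD mice lay between 0.00 and 0.60, while the IntL mice were at 2.56, 2.70 and 0.59. All 8 Gast mice were thus above all 10 mice of the other 3 Int codes but overlapped with IntL. Over all codes the difference was 1.98 ± 0.33 (adjusted p = 0.000108). Kcnmb4, the beta subunit common in neurons, was higher by 0.58 ± 0.15, and the BK pore gene Kcnma1 and Kcnmb1 did not pass the test. Kcnv1, a silent subunit that forms no channel alone and modifies Kv2 pores, was at 0.25 to 2.57 in Gast mice and at most 0.37 in Int mice. The highest Int mouse was exceeded by 7 of 8 Gast mice, with a difference of 1.32 ± 0.22 (adjusted p = 7.9e-05).

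The remaining higher members spanned several families. Among Kv3 genes, whose fast channels allow high firing rates, Kcnc1 was higher by 1.08 ± 0.22 and Kcnc2 by 0.66 ± 0.21, and Kcnc4 did not pass. The Kv4 gene Kcnd3, which carries A-type current, was higher by 0.96 ± 0.26. Kcnj3, a G protein-gated inward rectifier subunit, was higher by 1.20 ± 0.39, the sodium-activated Kcnt1 by 0.86 ± 0.27 and the silent subunit Kcns1 by 0.47 ± 0.14. Kcnu1, better known from sperm, differed by 0.52 ± 0.17. Gast and Int mice overlapped in every one of these 7 genes. Leaving out GastP mouse 10, which read 4.68 for Kcnip3 and 4.65 for Kcna1, reduced the members called from 21 to 13. The 8 lost included Kcnc2, Kcnd3, Kcnh8, Kcnj3, Kcns1, Kcnt1 and Kcnu1. The share of all genes called without this mouse is not given.

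**Figure D1:**
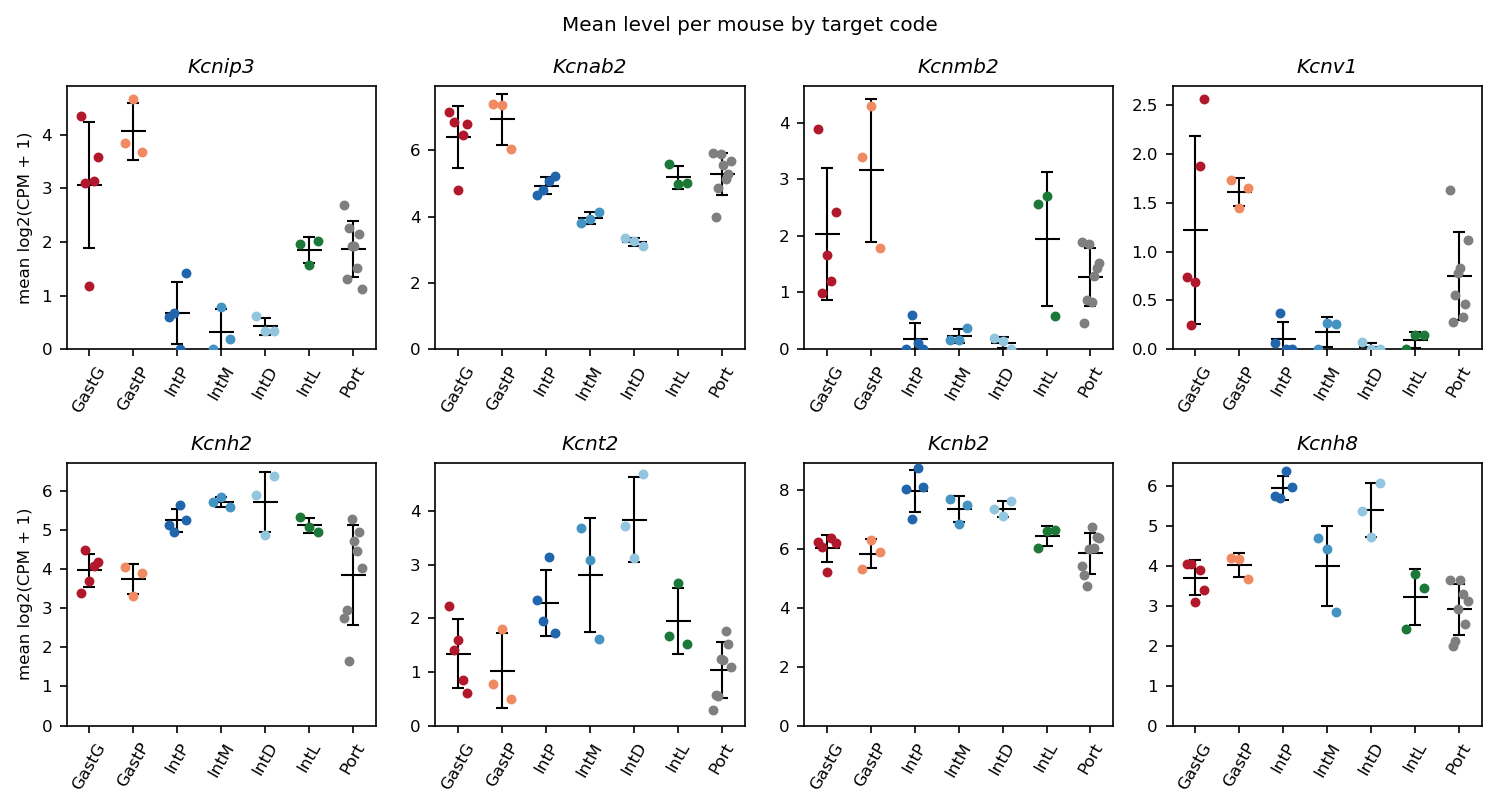
Mean level per mouse by target code for 8 members. Each point is 1 mouse, the vertical axis is log2(CPM + 1) averaged over cells, and black bars give the mean and SD of the mice of a code; the Gast mice of Kcnip3 reach 4.68 and IntD mice stay at or under 0.61, while Kcnh2 is at or above 4.87 in every Int mouse and at or under 4.48 in every Gast mouse.

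Among the lower members, Kcnh2 encodes the ERG1 channel, whose slowly deactivating current damps firing. It read 3.40, 4.48, 3.71, 4.09 and 4.17 in GastG mice and 4.05, 3.32 and 3.90 in GastP mice. The Int mice lay between 4.87 and 6.38 with a median of 5.33. Kcnh2 was the 1 member called whose Gast and Int mice did not overlap. The share of all genes without overlap was not counted. The difference was -1.59 ± 0.33 (adjusted p = 0.00117). The ELK channel gene Kcnh8 differed by -0.78 ± 0.26 (adjusted p = 0.0402), with its Gast mice, at 3.09 to 4.19, inside the Int range of 2.43 to 6.36. Kcnh1, Kcnh6 and Kcnh7 of the same family did not pass.

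Kcnt2, a sodium-activated channel gene, went the opposite way to its relative Kcnt1. Gast mice lay at 0.49 to 2.22 (median 1.13) and Int mice at 1.53 to 4.69 (median 2.66). The IntD mice, at 3.72, 3.12 and 4.69, gave the highest code mean, and 5 Gast mice fell below all Int mice, with a difference of -1.54 ± 0.29 (adjusted p = 0.000392). Kcnb2, a Kv2 pore gene of the delayed rectifier current, was at 5.22 to 6.36 in Gast and 6.04 to 8.73 in Int mice. The Int range began above 3 Gast mice, and the difference was -1.34 ± 0.24 (adjusted p = 0.000181). The silent subunit Kcnf1, a modifier of Kv2 pores, had 1.10 to 3.37 in Gast mice and 1.78 to 5.36 in Int mice, a difference of -1.19 ± 0.37 (adjusted p = 0.0291). The IntP mice, at 4.61, 3.80, 4.18 and 5.36, overlapped with single mice of IntM, at 4.34, and IntD, at 4.22.

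By family, the test called 2 of 5 Kv1, 1 of 3 Kv beta, 1 of 2 Kv2, 2 of 3 Kv3, 1 of 2 Kv4, 2 of 3 KChIP, 3 of 5 silent, 2 of 5 EAG, ERG and ELK, 1 of 4 KCNQ, 2 of 4 BK, 1 of 6 inward rectifier and both sodium-activated genes. None of the 4 SK and IK genes, whose small and intermediate calcium-activated currents slow firing, was called. Calls of both directions came within the silent and the sodium-activated genes alone. Of the 21 members, 11 kept the call whichever single mouse was left out. With TMM scaling 13 members were higher and 5 lower, and all genes had a median difference of 0.01.

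Partners of the channels, 30 genes of which 26 were tested, gave 5 higher and 3 lower in Gast neurons. Lgi1, a secreted protein that binds Kv1 complexes, was higher by 4.08 ± 0.33, and Adam11, of the family that holds the Lgi receptors, by 3.35 ± 0.39. Dpp10, an auxiliary subunit of Kv4 channels, was higher by 1.13 ± 0.28. The BK auxiliary gene Lrrc55 was lower by the most, with a difference of -1.11 ± 0.27.

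Gast and Int codes held different neuron types. Each coded cell was matched to the droplet cluster it correlated with best, with no Kcn gene used in clustering or matching. The type led by Sst and Ctxn3 took 49 of 105 Gast cells (46.7%) and 3 of 169 Int cells (1.78%). The type led by Gpr65 and Edn3 took 3 Gast cells (2.86%) and 65 Int cells (38.5%), and the type led by Dbh and Mfap5 took 7 (6.67%) and 43 (25.4%). Between the first 2 of these types all 21 members called differed in picked cells with the same sign as between Gast and Int. These are partly the same cells, and the members were chosen by that comparison, so this agreement was largely set in advance. In the droplet clusters 19 of the 21 had the same sign, and Kcnf1 (4.08 against 1.56 CPM) and Kcns1 (1.25 against 1.56 CPM) did not. The share of all genes called that had the same sign was not counted. Kcnip3 averaged 5.38 in picked cells of the Sst and Ctxn3 type and 0.57 in those of the Gpr65 and Edn3 type, and the same clusters of the droplet library held 10.0 and 0 CPM. For Kcnab2 the picked cells had 7.01 and 3.63, and the clusters 275 and 37.6 CPM. Kcnt2 was reversed, at 0.69 and 4.45 in picked cells and 10.0 and 50.9 CPM in the clusters. Kcnh2 had 2.50 and 5.30 in picked cells, with 11.8 and 32.0 CPM in the clusters, and Kcnb2 5.46 and 7.55, with 190 and 512 CPM.

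With the matched type as a term in the fit (an alternative chosen after the data were seen, over 125 means of 331 cells in 9 types), 1 member was called, against 1.21% of all genes. That member was the silent subunit Kcng4, at -0.90 ± 0.23 (adjusted p = 0.0303), which differed by 0.05 without the term. All 21 members called without the term had smaller differences with it, and 18 of them by more than 2-fold. Their median size went from 1.19 to 0.25, and 17 kept their sign. The 21 were chosen for their differences without the term, so smaller differences with it were partly set in advance. The share of all genes called that became smaller was not counted. Kcnip3 went from 2.75 to 0.16 ± 0.27, Kcnab2 from 2.35 to 0.48 ± 0.21 and Kcnmb2 from 1.98 to 0.25 ± 0.27. Kcnh2 remained at -0.57 ± 0.28 and Kcnb2 at -0.44 ± 0.24, and none of these 5 passed the threshold.

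**Figure D2:**
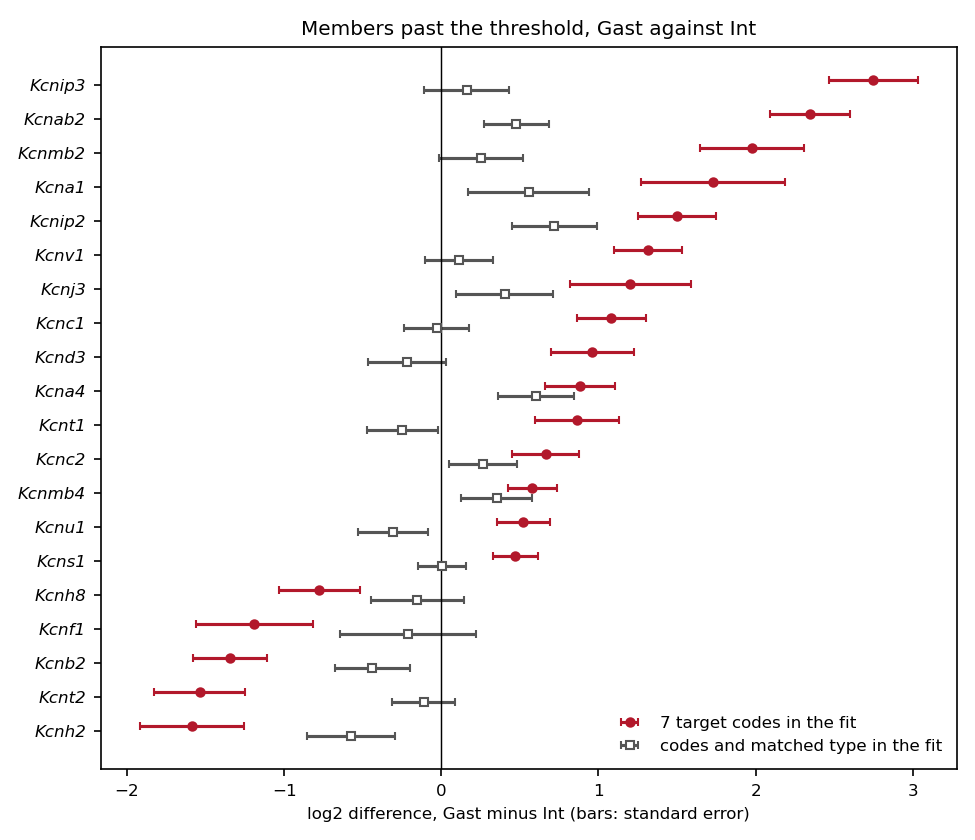
Of the 21 members past the threshold between Gast and Int neurons, 20 are plotted. The horizontal axis is the log2 difference, Gast minus Int, with standard errors; filled circles come from the fit of the 7 codes and open squares from the fit that also holds the matched type, in which every difference is smaller and Kcnip3 goes from 2.75 to 0.16.

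GastG was compared with GastP to see whether the 2 Gast codes differ. No member and no gene passed in limma (0%), and edgeR and DESeq2 called no member. At an unadjusted p under 0.05, which 4.32% of all genes passed, there were 2 members, Kcnip3 at -1.0 ± 0.45 and Kcnmb2 at -1.12 ± 0.53, both lower in GastG. With 5 and 3 mice these 2 differences were not separable from the spread between mice.

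Port neurons were compared with the mean of the Gast and Int means. In Port, 9 members were lower and none was higher, where 2.95% of all genes were lower, 2.02% higher and 4.98% either. The 9 were the ELK gene Kcnh8 (-1.33 ± 0.24), the Kv1 gene Kcna2 (-1.29 ± 0.27), the ERG3 gene Kcnh7 (-0.94 ± 0.17), Kcnt2 (-0.92 ± 0.26), Kcnt1 (-0.86 ± 0.24), Kcnb2 (-0.76 ± 0.22), the Kv3 gene Kcnc4 (-0.72 ± 0.20), the beta subunit Kcnab1 (-0.58 ± 0.16) and Kcnu1 (-0.58 ± 0.15). At an unadjusted p under 0.05 there were 22 of 50 members, against 23.4% of all genes. This comparison shares the Gast and Int mice with the one above.

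Kcnh8 was at 2.00 to 3.65 in the 8 Port mice (median 3.02), at 3.09 to 4.19 in Gast and at 2.43 to 6.36 in Int mice, so Port mice overlapped with both. Kcnh7 was at 1.76 to 2.51 in Port (median 2.00), with medians of 3.37 in Gast and 2.71 in Int mice. These 2 kept the call whichever single mouse was left out. Kcna2, a Kv1 pore of the axon, read 4.33, 2.25 and 3.07 in Port mice 21, 22 and 27 and 4.50 to 5.11 in the other 5. Gast mice had 4.41 to 6.43 and Int mice 4.83 to 6.79, so the 3 Port mice lay below all of them.

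The same 3 Port mice stood apart in the nerve injury list, at 6.58, 9.14 and 7.70, where Port mouse 53 had 5.16 and the other 4 Port mice 3.23 to 3.86. GastP mouse 44 had 5.57 and every other mouse at most 4.97. The satellite glia list was at 5.16, 3.91 and 4.59 in Port mice 21, 22 and 27 and 2.79 to 4.10 in the other 5. In GastP mouse 44 it was at 5.45. Without these 3 Port mice and GastP mouse 44, 5 members were called, against 1.05% of all genes. Kcnh8 (-1.18 ± 0.26), Kcnh7 (-0.99 ± 0.21) and Kcnt1 (-0.94 ± 0.24) were lower. Kcnn3, an SK channel gene, was now higher in Port, at 1.24 ± 0.25 (adjusted p = 0.0149), as was Kcnj9, a G protein-gated inward rectifier gene, at 0.69 ± 0.17 (adjusted p = 0.0474). Kcnn3 read 0.82, 0.00 and 0.77 in Port mice 21, 22 and 27, and 2.63, 2.78, 1.67, 1.49 and 1.78 in the other 5. Kcna2 went to -0.77 and Kcnb2 to -0.28, and neither passed. Kcnh2, which was not called in Port, had 2.75, 2.96 and 1.65 in those 3 mice and 4.03 to 5.28 in the others. The parts of nerve injury and of the satellite glia list in these differences were not tested beyond leaving those mice out.

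The count of members called in Port, in either direction, depended on single mice. It was 2 without Port mouse 27, 3 without Port mouse 22 or GastP mouse 10, and 4 without Port mouse 53 or GastP mouse 9. It was 5 without Port mouse 21, GastG mouse 7 or 8, IntM mouse 15, IntD mouse 19 or IntL mouse 34. Without GastP mouse 44 it was 15. Shares of all genes called without these mice are not given, so the counts are not set against other genes. With the matched type in the fit 8 members were called, against 11.6% of all genes, and among them Kcna2 (-1.19 ± 0.22), Kcnb2 (-0.85 ± 0.20), Kcnh8 (-0.71 ± 0.25), Kcnc4 (-0.67 ± 0.23) and Kcnt2 (-0.52 ± 0.17) were lower. Kcnh2 (-1.08 ± 0.24) was also lower there, and Kcnh6 was higher, at 0.28 ± 0.07. Kcnh7 did not pass there, at -0.33 ± 0.18. Of the partners 1 was higher in Port, Lgi2, at 0.62 ± 0.18, and 3 were lower, led by Dpp10 at -1.22 ± 0.26.

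IntL was set against IntP, IntM and IntD. The test called 6 members, against 5.51% of all genes, with 2 higher (3.04% of all genes) and 4 lower (2.47%). Kcnmb2 was higher by 1.78 ± 0.48 and Kcnip3 by 1.38 ± 0.41, with the mouse values given above. Kcnh8 was lower, at 2.43, 3.78 and 3.45 in IntL mice, against 5.69 to 6.36 in IntP and 2.85 to 6.08 in IntM and IntD mice, a difference of -1.89 ± 0.37. Kcnip4, a KChIP subunit of Kv4 channels, had 5.31, 7.03 and 6.99 in IntL and 6.84 to 8.78 in the other Int mice (-1.66 ± 0.36). Kcnb2 was at -1.13 ± 0.34 and Kcnh7 at -1.04 ± 0.27. None of the 6 was called without IntL mouse 33, and 2 and 3 members were called without IntL mice 34 and 39. Shares of all genes called without these mice are not given. The satellite glia list, with genes such as Fabp7, Apoe and Sox10, was at 4.80, 3.59 and 5.77 in the 3 IntL mice and at 2.30 to 3.91 in the other Int mice, and its part was not tested. No member was called with the matched type in the fit, where 0.449% of all genes were. Among the partners Lgi1 and Akap5 were higher in IntL and Cntn2 was lower.

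Across the 4 Int codes an F test called 12 members, against 9.84% of all genes. The highest and lowest code means differed most in Kcnh8, by 2.72, with 5.94 in IntP, 3.99 in IntM, 5.39 in IntD and 3.22 in IntL. Kcnh7 followed the same order of IntP first and IntL last, from 3.93 to 2.02. Kcnj2, the strong inward rectifier Kir2.1 that holds the resting potential, was at 2.84, 2.23, 2.51 and 2.67 in the IntP mice and 0.56 to 1.22 in the 9 others. The IntP mice of Kcnj2 did not overlap with any other Int mouse (adjusted p = 0.00147). Kcnab2 was lowest in IntD, at 3.34, 3.26 and 3.11, and every mouse of the other 3 codes lay at or above 3.80. Kcnma1, the BK pore, averaged 4.03 ± 0.43 (SD, n = 4) in IntP and 2.58 ± 0.36 (SD, n = 3) in IntL mice. The others included Kcnip4, Kcnu1, Kcnc1, Kcna6 and Kcnc2. Of the 12, Kcnab2, Kcnh7, Kcnh8, Kcnj2 and Kcnma1 kept the call whichever single mouse was left out. The count was 5 without IntL mouse 33 and 7 without IntP mouse 17, and the shares of all genes there are not given. With the matched type in the fit 8 members were called, against 6.76% of all genes. Kcnj2 (adjusted p = 0.000588) was one of them, and Kcnh8 and Kcnh7 were not (adjusted p = 0.653 and 0.461).

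The droplet library gives the members' levels over all neurons of the ganglion. It is 1 library, so its values have counting intervals (95%, exact Poisson) and no test. Of the 58 members, 22 were detected in 50% of neurons or more, 15 in 20 to 50% and 21 in under 20%. The most abundant was Kcnb2, at 413 CPM (409 to 418), and other abundant members were Kcnab2 at 258, the KCNQ gene Kcnq3 at 218, Kcnab1 at 183, Kcnc4 at 158, Kcna2 at 112 and Kcna6 at 106. No 2 of these 7 had overlapping intervals. Kcnb2 had a UMI in 99.3% of neurons (median depth 56119 UMIs) and in 10.1% of satellite glia of the raw matrix (median depth 5519 UMIs), a class in which it was at 19.3 CPM. Kcna2 and Kcna6 differed from this pattern, with 92.8 and 73.9 CPM in satellite glia, where 39.8% and 33.6% of barcodes had a UMI.

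Within families the levels were far from even. Among Kv1 pores, Kcna1 was at 22.6 CPM and Kcna4 at 10.0 behind Kcna2 and Kcna6, and Kcna3, kept by the picked cells alone, was at 0.0738 CPM. The Kv3 genes Kcnc2 and Kcnc1 followed Kcnc4 with 48.3 and 41.7 CPM, and were found in 82.2% and 79.7% of neurons. Among Kv4 pores Kcnd1 led with 38.8 CPM, Kcnd3 had 12.6 and Kcnd2, kept by the droplet library alone, 1.70. Their KChIP partners ran from Kcnip4 at 63.0 CPM over Kcnip3 at 15.4 and Kcnip2 at 5.20 to Kcnip1 at 2.51.

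Of the ERG and ELK genes, Kcnh2 was at 39.4 CPM, Kcnh7 at 25.9 and Kcnh8 at 23.4, and their intervals did not overlap. The BK pore Kcnma1 stood at 38.4 CPM, above its subunits Kcnmb2 at 26.4, Kcnmb4 at 18.6 and Kcnmb1 at 3.66. The 4 SK and IK genes were all scarce, at 2.14 to 5.67 CPM. Among inward rectifiers Kcnj3 led with 42.5 CPM and was in 78.7% of neurons, while Kcnj9, which assembles with Kcnj3, had 6.99 CPM. The silent subunits were led by Kcns3 at 26.9 CPM, and the others lay at 1.17 to 12.2 CPM.

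Even the broadly used genes varied over the 28 neuron clusters, which were made with every Kcn gene left out. Kcnb2 ranged from 173 CPM in the cluster led by Aldh1a3 and Igfbp2 to 755 in that led by Bmp3 and Sost and 940 in a cluster of 12 neurons led by Gpr65 and Ntsr1, whose median depth was 18855 UMIs. Kcnq3, a KCNQ pore of the M current that restrains firing, was at 478 CPM in the Uts2b and Gabre cluster and at 2.48 in the Col27a1 and 2900052N01Rik cluster. Kcnab2 had 804 CPM in the cluster of Gm7271 and Chodl and 37.6 in that of Gpr65 and Edn3. Kcna2 had 429 CPM in the cluster of Cbln2 and Spp1 and 26.3 in that of Aldh1a3 and Igfbp2.

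Of the 45 members with at least 200 UMIs, 15 had more than 20% of their UMIs in 1 cluster, and 7 had more than 30%. The same shares over all genes were not counted, so these counts are not set against other genes. Kcnmb1, a BK beta subunit best known from smooth muscle, had 59.7% in the cluster of Prdm12 and Tmem45b, which holds 2.30% of the neurons. The silent subunit Kcng1 had 52.2% in the cluster of Smco4 and Aqp1 (5.06% of neurons), at 41.0 CPM. Kcnip2 had 42.0% and Kcnmb2 30.03% in the cluster of Slc18a3 and Gm2990, which holds 3.31% of neurons, at 63.9 and 231 CPM. Kcnt2 had 41.5% in the cluster of Gpr65 and Edn3 (3.68% of neurons). Kcnq5 had 40.8% in the cluster of Uts2b and Gabre (7.91% of neurons). Kcnip3, Kcnf1, Kcna1, Kcnh8 and Kcnj2 followed with 27.1%, 26.9%, 26.6%, 26.3% and 22.5%. Among the 3 pairs whose levels were most alike over the 28 clusters were Kcna2 with Kcna1 (Pearson r = 0.85) and Kcna2 with Kcns1 (0.85). The clusters share 1 library, and these values describe it.

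**Figure D3:**
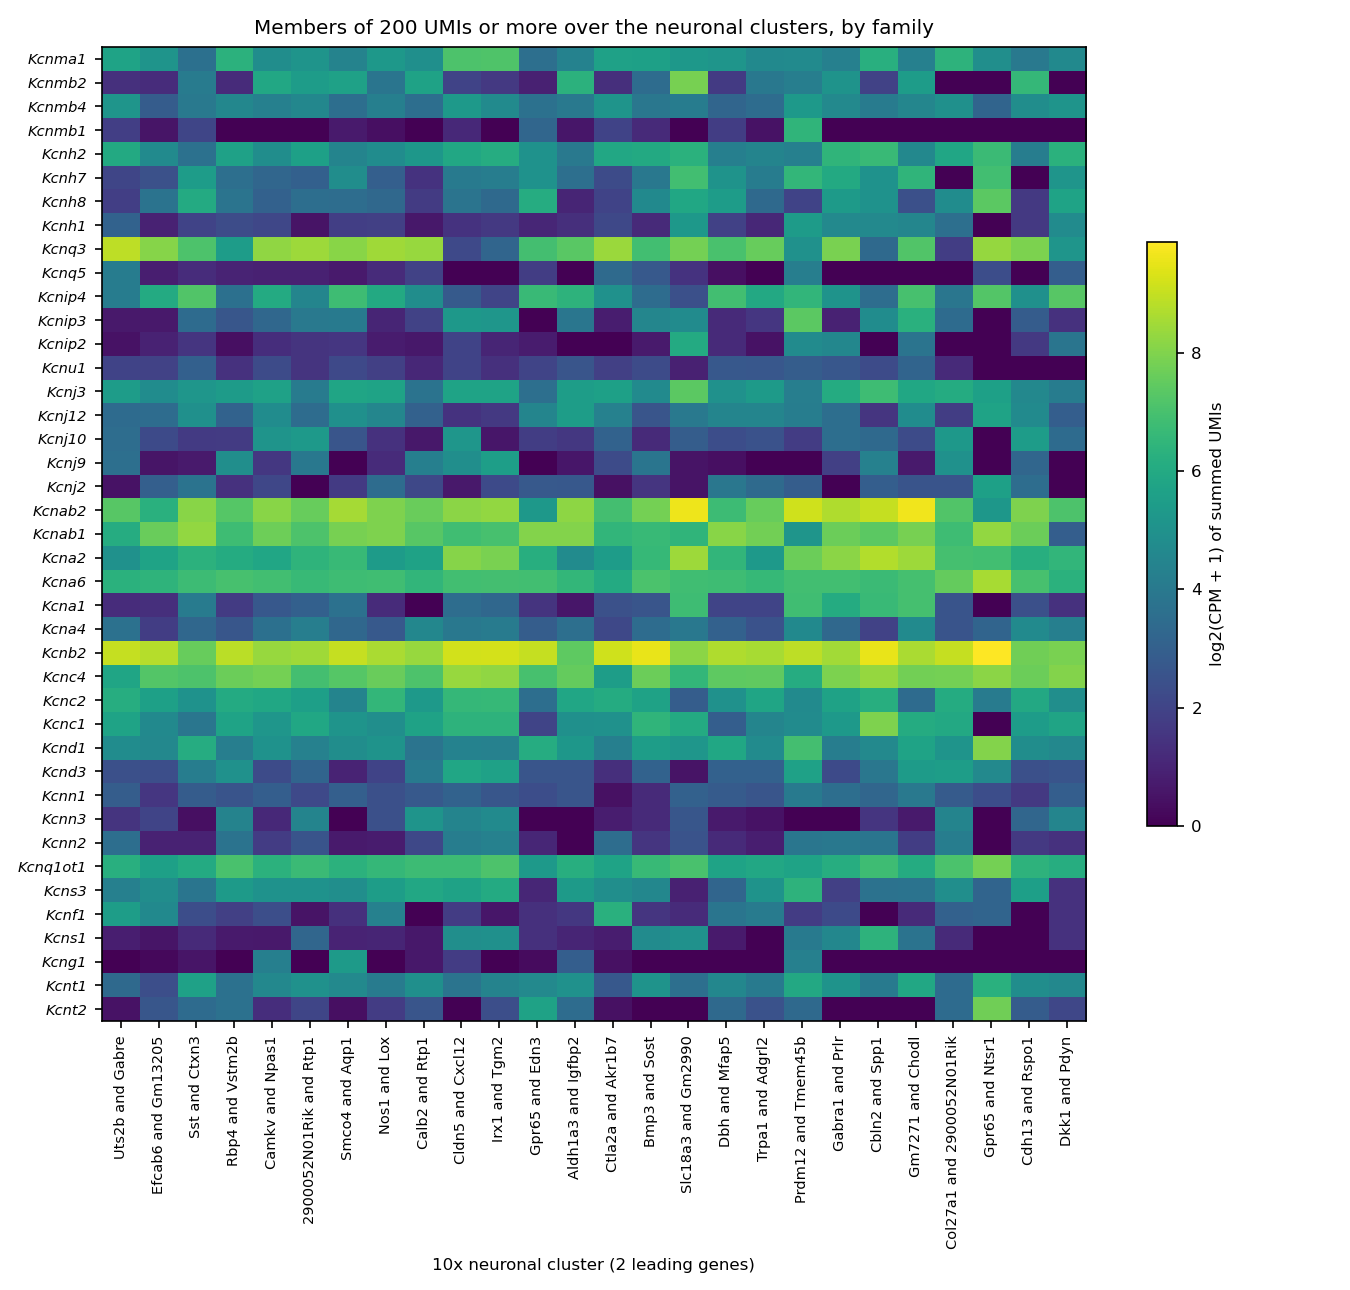
Levels of 41 members with at least 200 UMIs over 26 of the droplet neuron clusters. Rows are genes in order of family, columns are clusters named by 2 leading genes, and colour is log2(CPM + 1) of the summed UMIs; Kcnb2 is bright in all columns, and Kcnmb1 is brightest in the column of Prdm12 and Tmem45b at 87.3 CPM.

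Kcnj10, the inward rectifier of satellite glia, was detected in 25.8% of neurons at 8.17 CPM. Its highest clusters, Cdh13 and Rspo1 at 42.8 CPM and 2900052N01Rik and Rtp1 at 38.1 CPM, were also high in the summed satellite glia list, at 7049 and 7169 CPM. In the cluster of Gpr65 and Ntsr1 Kcnj10 had no UMI and the list was at 242 CPM. That cluster holds 12 neurons and 247978 UMIs, too few to place Kcnj10 below its level over all neurons. No doublets were removed, and the part of satellite RNA in these values was not tested.

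The cluster led by Prdm12 and Tmem45b holds 25 neurons and carries markers of the jugular ganglion, which is fused with the nodose ganglion in the mouse and derives from neural crest. It averaged 7.13 over the jugular-like markers and 3.86 over the nodose-like ones, on the log2(CPM + 1) scale, and the other 27 clusters averaged 0.93 to 3.77 and 4.97 to 8.27. Of 57 members with at least 20 UMIs, 24 were more than 2-fold higher in this cluster than in the 1062 other neurons, where 7.74% of all genes were. Another 12 were more than 2-fold lower, where 19% of all genes were. Counting intervals cleared a ratio of 1 for all 24 and for 11 of the 12, and the median ratio was 1.59.

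Kcnmb1 had the highest ratio, 57.6 (44.4 to 75.1), from 87.3 against 1.52 CPM. It was found in 72% of the 25 neurons and 6.78% of the others. Kcnip3 (14.5), Kcnip1 (14.02), Kcnv1 (11.4), Kcng2 (9.46), Kcnq5 (6.64) and Kcnh1 (6.38) were also among the highest, so the silent, KChIP, KCNQ and EAG groups each had a member there. Kcnmb1 lies within Kcnip1 on the opposite strand, so in the unstranded picked cells their reads could be mixed. At the other end Kcnab3, Kcne3, Kcnn3 and Kcnj9 had no UMI in the 25 neurons, and the interval's upper bound was 0.305 for Kcnj9, 0.399 for Kcnn3, 0.830 for Kcnab3 and 2.39 for Kcne3. Kcnh8 had a ratio of 0.12 (0.04 to 0.29), Kcnq3 0.14 (0.10 to 0.18), Kcnab1 0.18 (0.14 to 0.24) and Kcnf1 0.19 (0.05 to 0.49). Kcnb2, with 476 against 412 CPM, was close to even at 1.16. Within the KCNQ family the genes thus split, with Kcnq5 more than 6-fold higher and Kcnq3 lower. Thinned to 10000 UMIs a cell, 20 members were higher and 16 lower.

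**Figure D4:**
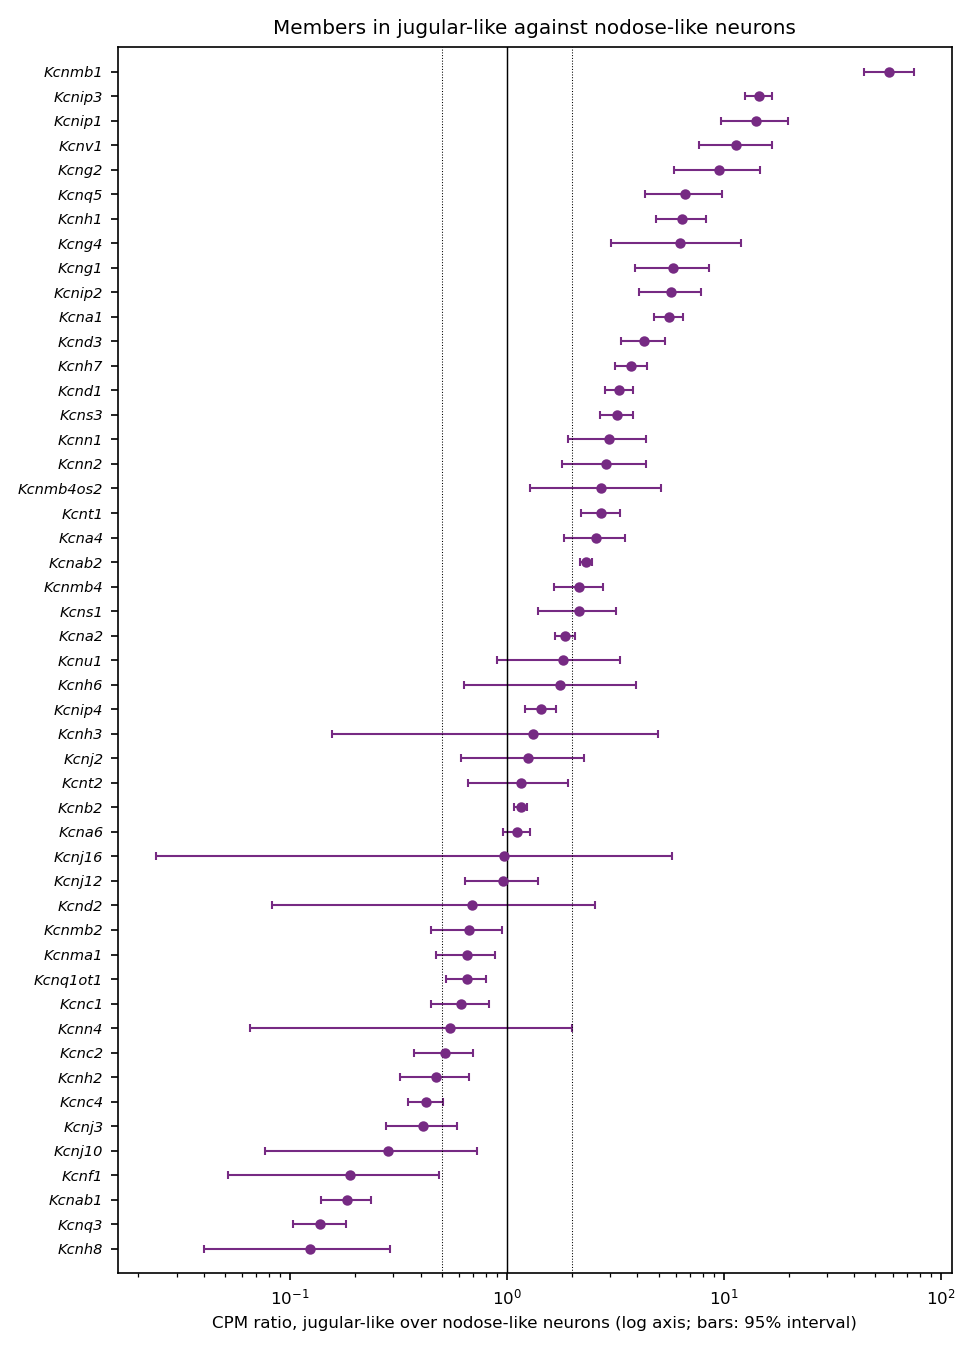
Ratio of CPM in the 25 jugular-like neurons to that in the 1062 nodose-like neurons, on a log axis, for 49 members with a UMI in both. Bars are 95% counting intervals and dotted lines mark 2-fold; Kcnmb1 is at the top with 57.6 and Kcnh8 at the bottom with 0.12.

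Glial classes of the raw matrix were led by other members. In 437 satellite glia, the cells that wrap the neuron bodies, 7 of 57 members were more than 2-fold higher than in neurons, where 19% of all genes were, and 43 were more than 2-fold lower, where 36.2% of all genes were. The interval lay under a ratio of 1 for 39 of the 43. Kcnn4, the intermediate calcium-activated channel, was at 127 CPM against 2.13, a ratio of 59.6 (49.0 to 72.9). Kcnj10 was at 321 against 8.18 CPM, a ratio of 39.2 (35.2 to 43.7). Kcnj16, which assembles with Kcnj10, had a ratio of 25.8, and Kcna1 4.65, Kcnn2 2.86, Kcnmb4 2.54 and Kcnmb4os2 2.25 followed. In 154 myelinating Schwann cells 3 members were higher, where 17.2% of all genes were, and 48 were more than 2-fold lower, where 45.3% of all genes were. The interval lay under a ratio of 1 for 25 of the 48, and the others had too few UMIs at this depth. Kcna1 stood at 2020 CPM against 23.0 in neurons, a ratio of 87.8 (80.6 to 95.7), and had a UMI in 94.2% of these barcodes. Kcnj10 (4.31) and Kcnmb4os2 (2.22) were the others, and the second rested on 2 UMIs. In 58 mural cells of blood vessels Kcnmb1 was at 55.2 CPM and Kcnab1 at 116 CPM. Another 474 raw barcodes were given no class and entered no ratio. Among them was a cluster of 142 barcodes with Kcna1 among its leading genes.

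**Figure D5:**
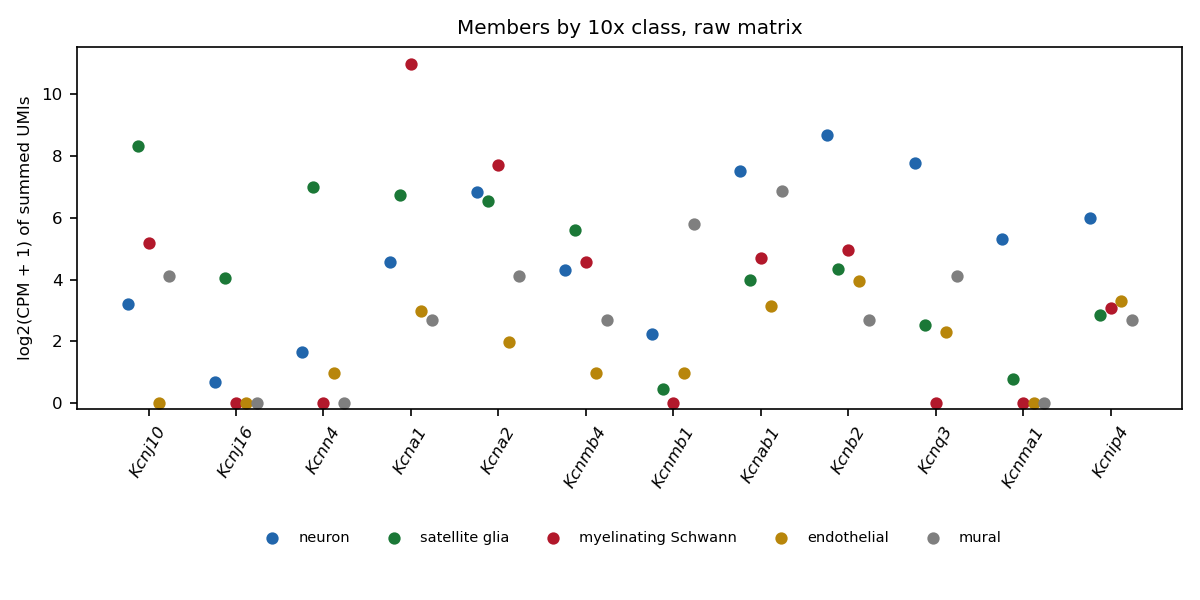
Levels of 12 members in 5 classes of the raw droplet matrix, as log2(CPM + 1) of the summed UMIs. Each point is 1 class; Kcna1 is highest in myelinating Schwann cells (2020 CPM), Kcnj10 in satellite glia (321 CPM) and Kcnb2 in neurons.

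A few members were seen very differently by the 2 protocols. Kcnh6, the ERG2 gene, had 10 reads in 99.8% of picked cells and a UMI in 11.01% of droplet barcodes, and it overlaps no other gene in the GENCODE annotation. Its picked level was also even, with code means of 7.79 to 8.32. The opposite held for non-coding members. The antisense Kcnq1ot1, an imprinted transcript, and Kcnmb4os2 were in 0% of picked cells and in 93.8% and 11.9% of barcodes. Kcna3 had 10 reads in 18.3% of picked cells and a UMI in 0.451% of barcodes. No passing picked cell had even 1 read of Kcnq1ot1 or Kcnmb4os2, which lie opposite Kcnq1 and Kcnmb4. The protocols differ in chemistry, in depth and in the mice's age. They may also differ in aligner and in the genes counted, which are not given for the picked cells. These differences cannot be told apart here.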

How the data were processed

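Single cells of the mouse nodose ganglion were measured by Smart-seq2 (452 picked cells used) and by 1 10x Genomics library. The deposited values of the picked cells are log2 of reads per gene and cell, made by the authors with a floor of log2(0.02); the aligner and counter are not given in the sources used here. Raised to the power of 2, 94.1% of values above the floor were whole reads within 1 part in 1000. The droplet files hold UMI counts from Cell Ranger 2.0.1 on mm10, per the submitters' processing notes; the deposited filtered matrix has 1108 barcodes. In the reads, 1 column matched no sample name and was not used.

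Picked cells with at least 2000 genes passed. Log2(CPM + 1) was averaged per mouse, and limma 3.58.1 (R 4.3.3, with trend) was fitted to 29 mice of at least 4 cells and 7 codes, over the 12702 genes that reached 10 reads in 5% of the cells or more. Benjamini-Hochberg adjustment covered all 12702 genes, at a threshold of 0.05. On simulated data with the same mice, a log2 change of 2 was recovered in 94% or more of changed genes and a change of 1 in 43% to 92%, depending on the comparison. A separate fit added the matched type, with the mouse as a block.

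Neurons of the droplet library were clustered with scanpy 1.11.5 (2000 variable genes, 30 components, 15 neighbours, Leiden resolution 1.5) without Kcn genes; no doublet caller was run. Its values are CPM of summed UMIs with 95% exact Poisson intervals, shares of barcodes, and ratios with exact intervals, which cover counting error only. Ratios needed at least 20 UMIs and cluster shares at least 200. Raw barcodes with at least 1000 UMIs and 500 genes were clustered for the glial classes.

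Any member may be named; values were given for the members called (up to 12 a direction between Gast and Int, up to 6 elsewhere), and in the droplet library for the 8 of highest CPM, the 12 with the largest share of UMIs in 1 cluster, the 8 highest and 8 lowest jugular-like ratios and the 3 most alike pairs. Family levels, glial classes and protocol differences were chosen after their values were seen. Alternatives were other pseudocounts, filters, scalings, edgeR 4.0.16 and DESeq2 1.42.0 on summed reads, subsets of mice, thinning and another clustering. The members and lists were chosen with earlier results of these data known. Some genes and clusters are not reported here, though the counts include them.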

Additional observations from a re-analysis of the deposited data

Results flagged for a closer look

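In 93 groups of 4 to 10 mice over 31 members, the highest or lowest mouse stood far from the rest in 2, and chance alone marks about 1 group in 20. Kcnb2 was at 5.22 on the log2(CPM + 1) scale in GastG mouse 41, where the other 4 GastG mice lay at 6.08 to 6.36. This mouse was also the lowest GastG mouse for Kcnip3, at 1.18, and Kcnab2, at 4.80, and had the highest nerve injury value of its code, at 4.97. Kcnv1 was at 0.367 in IntP mouse 12, where the other 3 IntP mice lay at 0 to 0.0619.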

How the results depend on the processing

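Between Gast and Int neurons 14 to 20 members were called under other pseudocounts, filters, scalings, tools and subsets of mice, 13 to 21 on leaving out 1 mouse, 1 with the matched type in the fit and 0 with types matched after centring, both added after the data were seen. None of the 21 reversed under those settings. With the matched type Kcnc1 (-0.030), Kcnd3 (-0.22), Kcnt1 (-0.25) and Kcnu1 (-0.31) reversed, and with centred matching Kcnc1 (-0.055), Kcnc2 (-0.14), Kcnd3 (-0.093), Kcnh8 (0.21), Kcnt2 (0.065) and Kcnu1 (-0.39) did. In Port, from 9, the count was 3 with no filter, 4 with edgeR and 0 with mice of at least 8 cells. It was 5 without the 4 mice of high nerve injury transcripts and 2 to 15 on leaving out 1 mouse. With mice numbered up to 39 it was 21, and the only Port mice fitted there were mice 21, 22 and 27. Those 3 were the highest of all mice in the nerve injury list. In IntL, from 6, the count was 3 with no filter and 3 with mice of at least 8 cells. It was 11 without the 4 mice of high nerve injury transcripts, 0 with the matched type and 0 to 8 on leaving out 1 mouse. Across the Int codes, from 12, it was 25 with DESeq2, 1 with mice of at least 8 cells, 19 with mice numbered up to 39, 20 without those 4 mice and 5 to 17 on leaving out 1 mouse. Fewer mice are fitted in these subsets. Those 4 mice include no Int mouse, and every Int mouse is numbered 39 or lower. The Int differences were thus the same in both subsets, and only the spread shared over codes and the adjustment changed. The cause of the other changes was not tested. Shares of all genes called under these settings are given only where stated above. Neurons with a Prdm12 UMI against those without gave 19 members more than 2-fold higher, from 24, and 3 more than 2-fold lower, from 12. Of the 49 neurons with a Prdm12 UMI, 25 lay in the jugular-like cluster. Fits limited to at least 2 or 3 cells per mouse and type were not run, because 0 types had 3 Gast and 3 Int mice even at 2 cells. No paired analysis was possible because the codes share no mouse. Depth limits members with few UMIs: a count of 0 allows up to 3.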
